A study of Homo sapiens with 12 samples.

Results

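In THP1 cells, 10 genes of tumor necrosis factor (TNF) signalling were followed: the ligands TNF, LTA, LTB, TNFSF10 and TNFSF13B, the receptors TNFRSF1A and TNFRSF1B, the adaptors TRAF1 and TRAF2, and the receptor complex inhibitor BIRC3. They were chosen by name, and their 10 rows were read among the 58735 gene rows of the deposited count table. THP1 is an established human monocytic leukemia cell line, labelled wild type. It was kept in endothelial medium as mono-culture or in transwell co-culture with control endothelial cells (control ECs, umbilical vein cells given DMSO), ECs made senescent by etoposide (senECs), or senECs then treated with epigallocatechin gallate (EGCG-treated senECs). After 24 h the THP1 cells were taken out and stimulated with 100 ng/ml lipopolysaccharide (LPS) for 2 h, so that all 12 libraries, 3 per group, came from LPS-stimulated cells and none from resting cells. Etoposide is a topoisomerase inhibitor that damages DNA, and EGCG is a catechin of green tea. The membrane kept the cell types apart, and only the THP1 cells were sequenced. The labels number the replicates of the mono-culture and control EC groups 1, 2 and 3, but those of both senEC groups 1, 2 and 5. The labels do not say whether a number stands for a separate culture, so that p-values measure only the spread between these libraries, which may be technical.

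TNF is made by monocytes within minutes to hours of LPS contact and is the founding ligand of its family. It binds TNFRSF1A, found on most cells, and TNFRSF1B, found mainly on leukocytes and endothelial cells. TRAF2 links the bound receptor to the inhibitors of apoptosis BIRC2 and BIRC3, which attach ubiquitin and lead to activation of the transcription factor NF-κB, and NF-κB in turn raises transcription of TNF, TRAF1 and BIRC3. LTA and LTB form lymphotoxin, a lymphocyte product, TNFSF10 is the death ligand TRAIL, and TNFSF13B is the B cell survival factor BAFF.

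Library totals lay between 15439836 and 22092600 counts. A count of 0 in the smallest library would allow up to 0.194 CPM, a unit of counts relative to library size, and this bound takes in counting error alone. Within each group, the counts of any pair of libraries differed by more than sampling noise (chi-square 10.3 to 38.2 per degree of freedom). Of 12 monocytic marker genes fixed for this check all were detected, at a summed level from 930 to 1648 CPM, although CD68 had only 2 to 16 counts in a library. Of 19 endothelial markers, 5 had fewer than 10 counts in all libraries together. CDH5, the cadherin of endothelial junctions, had 2 counts in all, and SOX17 and MMRN1 were at 0. Other markers were detected, with 47 to 91 counts in a library for NOS3 and 7 to 40 for VWF. ESAM had 18 to 78, ERG 3 to 37 and ANGPT2 2 to 71 counts, each highest in control EC replicate 2. Whether endothelial RNA was carried over into that library was not tested. The summed endothelial level, most of it EGFL7, was 26.7 to 32.3 CPM in mono-culture and 29.6 to 39.0 CPM in the co-cultures. Of 10 lymphocyte markers, 5 had fewer than 10 counts, and the T cell genes CD3D, CD3E and CD2 were at 0.

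The 10 genes lie on 7 chromosomes of GRCh38. LTA (6:31572054-31574324, plus strand), TNF (6:31575567-31578336, plus strand) and LTB (6:31580525-31582522, minus strand) stand side by side within 10469 bases, with gaps of 1242 and 2188 bases. TRAF1 (9:120902393-120929173, minus strand) and TRAF2 (9:136881912-136926607, plus strand) are on one chromosome, far apart. TNFRSF1A is at 12:6328757-6342114 (minus strand), TNFRSF1B at 1:12167003-12209228 (plus strand), BIRC3 at 11:102317450-102339403 (plus strand), TNFSF10 at 3:172505508-172523507 (minus strand) and TNFSF13B at 13:108251240-108308484 (plus strand). Only TNFRSF1B shares exon bases with another annotated gene, 36 bases with the microRNA gene MIR7846, which had 0 counts.

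The 250 bases before the RefSeq start (GRCh38.p14, on the gene's strand, 5′ to 3′) are shown for TNF, BIRC3, TRAF1 and TNFRSF1B, because these 4 genes were highest in the library numbered 3 or 5 of every group. Capitals mark matches, on either strand, of 3 motifs searched: the NF-κB consensus, the TATA box TATAAA, and the AP-1 motif TGANTCA.
TNF, chr6:31575315-31575564, plus strand: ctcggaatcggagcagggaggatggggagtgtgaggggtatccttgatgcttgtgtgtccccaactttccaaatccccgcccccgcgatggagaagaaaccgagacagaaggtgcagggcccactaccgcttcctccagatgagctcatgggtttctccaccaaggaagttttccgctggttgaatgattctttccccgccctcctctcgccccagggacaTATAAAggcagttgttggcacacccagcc
BIRC3, chr11:102317234-102317483, plus strand: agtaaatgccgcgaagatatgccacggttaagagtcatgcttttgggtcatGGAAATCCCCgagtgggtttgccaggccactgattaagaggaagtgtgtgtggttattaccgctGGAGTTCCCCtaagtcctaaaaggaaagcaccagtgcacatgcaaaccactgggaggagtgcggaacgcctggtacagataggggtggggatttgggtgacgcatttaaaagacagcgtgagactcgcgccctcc
TRAF1, chr9:120929172-120929421, minus strand: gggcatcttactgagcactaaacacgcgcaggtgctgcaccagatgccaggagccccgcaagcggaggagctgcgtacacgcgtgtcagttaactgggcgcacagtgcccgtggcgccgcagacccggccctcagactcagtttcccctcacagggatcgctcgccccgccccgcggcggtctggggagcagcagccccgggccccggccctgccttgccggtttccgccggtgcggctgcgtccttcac
TNFRSF1B, chr1:12166741-12166990, plus strand: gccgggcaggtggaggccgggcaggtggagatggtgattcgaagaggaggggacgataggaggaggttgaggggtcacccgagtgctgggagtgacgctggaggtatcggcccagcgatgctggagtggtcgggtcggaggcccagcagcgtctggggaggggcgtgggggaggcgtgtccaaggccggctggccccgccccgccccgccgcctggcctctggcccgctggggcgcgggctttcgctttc
The BIRC3 window held 2 NF-κB matches, which began 199 and 135 bases before the start, and the LTB window held 1. No match of the NF-κB consensus was found for TNF, TRAF1 or TNFRSF1B in this short window. A site that departs from the consensus is not marked, so that this says nothing about binding within the window or elsewhere. Over all 35116 promoter windows of the same length, 5.21% held an NF-κB match, and 2 of the 10 genes did. TATAAA stood in the windows of TNF, 29 bases before the start, and TNFSF10, and in 10.7% of all windows. TGANTCA was in none of the 10 windows and in 6.57% of all. For TNFSF13B and TRAF2 the nearest RefSeq start lay 18389 and 4604 bases from the 5′ end of the GENCODE gene, so that their windows belong to an inner start.

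Per length, TNF was the most abundant of the 10 genes, at 46.3 ± 17.7 fragments per kilobase and per library size (FPKM; mean ± SD, n = 12 libraries). The receptors followed, with TNFRSF1A at 18.0 ± 1.96 FPKM and TNFRSF1B at 14.95 ± 2.36 FPKM. TNFRSF1A was the higher of both in 9 of 12 libraries. TRAF2 stood at 12.6 ± 0.903 FPKM, TRAF1 at 7.71 ± 5.14 FPKM and BIRC3 at 5.79 ± 0.953 FPKM, and the SD of TRAF1 spans both of its neighbours. TRAF2 exceeded TRAF1 in 8 of 12 libraries, and TRAF1 exceeded BIRC3 in 7. LTB (1.63 ± 0.466 FPKM) and TNFSF13B (1.37 ± 0.200 FPKM) did not differ beyond their spread. TNFSF10 (0.190 ± 0.101 FPKM) and LTA (0.172 ± 0.118 FPKM) were the lowest and overlapped. LTA had 1 to 14 counts in a library and TNFSF10 4 to 21, so that differences in both were poorly resolved at this depth.

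**Figure D1:**
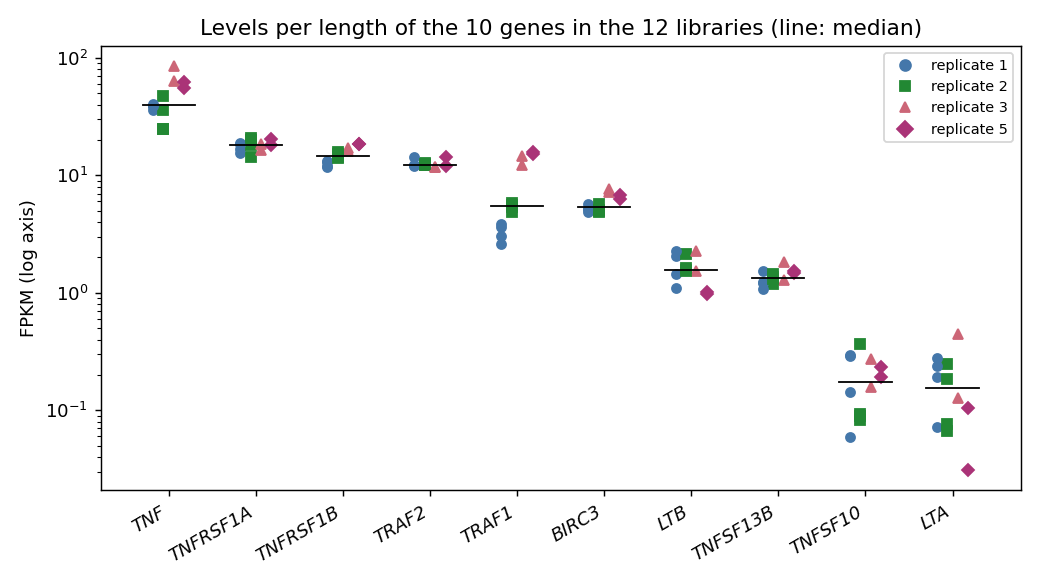
FPKM on a log axis of the 10 genes in each of the 12 libraries, with symbols for the replicate number and a line at the median. TNF stands highest, the receptors and TRAF2 form a narrow band, TRAF1 spreads widely between replicate numbers, and TNFSF10 and LTA lie lowest.

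The first question was whether co-culture with ECs moved these genes in THP1 cells. None of the 10 genes passed the test in any of the 6 comparisons of 2 groups, or when the mean of the 3 co-cultures was set against mono-culture (edgeR quasi-likelihood test on 25873 genes with the culture group alone in the model, Benjamini-Hochberg adjusted p under 0.05). Of all genes, the test called 0.143% in control EC co-culture against mono-culture, 0.309% in senEC co-culture, 0.213% in EGCG-treated senEC co-culture and 0.723% in the mean of the co-cultures. With so few genes called, 0 of 10 is near the background. In the mean of the co-cultures against mono-culture, 2 of the 10 genes, TNFRSF1A and LTB, had an unadjusted p under 0.05, as did 10.7% of all genes.

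TNF was measured at 60.9, 78.7 and 143 CPM in mono-culture, at 65.7, 59.9 and 107 CPM with control ECs, at 64.9, 41.9 and 105 CPM with senECs, and at 68.0, 41.9 and 93.2 CPM with EGCG-treated senECs. The groups overlapped, and in each the library numbered 3 or 5 was the highest. The group means were 94.1 ± 43.0 CPM in mono-culture, 77.7 ± 26.0 CPM with control ECs, 70.7 ± 32.1 CPM in the senEC group and 67.7 ± 25.6 CPM in the EGCG-treated senEC group (SD, n = 3 each). The mean of the co-cultures differed from mono-culture by a log2 fold change of -0.39 (SE 0.26, edgeR adjusted p = 0.624), and without mono-culture replicate 3 the value was 0.04. The 95% interval ran from -0.92 to 0.15. Without the filter on low counts edgeR did call TNF, as the only one of the 10 genes, lower with senECs (log2 fold change -0.41, adjusted p = 0.0373), with EGCG-treated senECs (-0.48, adjusted p = 0.00777) and in the mean of the co-cultures (-0.38, SE 0.094, adjusted p = 0.00464), where it called 1.69%, 1.08% and 1.67% of all genes. In the mean of the co-cultures the log2 fold change was nearly that of the fit with the filter (-0.39). The SE, however, was 0.094 against 0.26 on the same libraries, so that this call rests on a smaller estimate of the spread. In bulk RNA, fewer cells that express a gene and less RNA per cell cannot be told apart.

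TNFRSF1A, the death domain receptor for TNF, was the only one of the 10 genes whose mono-culture libraries lay apart from all co-culture libraries. It stood at 61.5, 57.1 and 65.8 CPM in mono-culture, at 67.7, 72.1 and 74.4 CPM with control ECs, at 73.6, 80.3 and 81.0 CPM with senECs, and at 75.2, 83.0 and 73.1 CPM with EGCG-treated senECs. All 3 mono-culture libraries lay below all 9 co-culture libraries. Such a separation in this direction held for 1 of the 10 genes and for 1.77% of all genes tested. The log2 fold change of the mean of the co-cultures against mono-culture was 0.30 (95% interval 0.13 to 0.47), but the edgeR adjusted p was 0.130. It was 0.22 with control ECs (adjusted p = 0.752), 0.35 with senECs (adjusted p = 0.169) and 0.33 with EGCG-treated senECs (adjusted p = 0.262), all from edgeR. DESeq2, run on the same counts, called TNFRSF1A as the only one of the 10 genes with senECs (adjusted p = 0.0252), where it called 1.31% of all genes, and in the mean of the co-cultures (adjusted p = 0.0108), where it called 1.70% of all genes. Beside this, CD14, the LPS co-receptor, was called higher in the mean of the co-cultures (log2 fold change 1.59, edgeR adjusted p = 0.0492). It was the only one of the 12 monocytic markers called, where 0.723% of all genes were. Of the 12 markers 8 had a log2 fold change above 0, and CD14 ranged from 5.91 to 65.7 CPM over the libraries. The lymphocyte marker list, mostly NKG7 and GNLY, summed to 22.2 to 28.6 CPM in mono-culture and 27.5 to 48.7 CPM in the co-cultures. Of its 5 genes tested, only NKG7, a granule protein gene, was called, and it was higher (log2 fold change 0.97, edgeR adjusted p = 0.00223). In this list 3 of the 5 had a log2 fold change above 0. The part of these genes in the result was not tested.

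TNFRSF1B, the receptor without a death domain, had nearly equal group means of 56.1 ± 7.82, 55.6 ± 6.20, 57.7 ± 13.1 and 55.8 ± 12.7 CPM in mono-culture and the control EC, senEC and EGCG-treated senEC groups (SD, n = 3). The mean of the co-cultures differed from mono-culture by a log2 fold change of 0.01 (95% interval -0.28 to 0.29, edgeR adjusted p = 0.999).

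Among the other ligands, LTB, which anchors lymphotoxin to the membrane, was at 3.17, 3.28 and 3.47 CPM in mono-culture, at 1.68, 2.42 and 2.33 CPM with control ECs, at 2.22, 2.49 and 1.51 CPM with senECs, and at 3.47, 2.35 and 1.55 CPM with EGCG-treated senECs. These are 25 to 63 counts per library. Mono-culture lay above every control EC and senEC library, while 1 EGCG-treated senEC library reached the mono-culture level. Groups that did not overlap, with the co-culture lower, made up 6.51% of all genes with control ECs and 8.50% with senECs. LTB had a log2 fold change of -0.58 (95% interval -1.08 to -0.07, edgeR adjusted p = 0.394) in the mean of the co-cultures.

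TNFSF13B ranged from 3.30 to 5.56 CPM over all libraries, with a log2 fold change of -0.03 in the mean of the co-cultures against mono-culture (95% interval -0.43 to 0.36). LTA had 24 counts over the 3 mono-culture libraries and 14, 13 and 14 in the control EC, senEC and EGCG-treated senEC groups. Its log2 fold change in the mean of the co-cultures was -0.82, with a 95% interval from -2.20 to 0.56 that leaves its direction unresolved at this depth, and it ran from -1.25 without mono-culture replicate 1 to -0.17 without mono-culture replicate 3.

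TRAF1, an NF-κB-induced adaptor, was at 16.7, 31.5 and 79.5 CPM in mono-culture, at 19.6, 35.8 and 93.4 CPM with control ECs, at 24.8, 34.4 and 101 CPM with senECs, and at 23.3, 37.6 and 98.7 CPM with EGCG-treated senECs. The spread inside each group far exceeded the differences between group means, which were 42.6 to 53.5 CPM. The mean of the co-cultures against mono-culture gave a log2 fold change of 0.29 (95% interval -0.74 to 1.31, edgeR adjusted p = 0.894). It was -0.09 without mono-culture replicate 1 and 1.10 without mono-culture replicate 3.

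TRAF2, the constitutive adaptor, had the smallest ratio of highest to lowest library among the 10 genes, 1.22. It ranged from 43.5 to 52.9 CPM over the 12 libraries, and the mean of the co-cultures differed from mono-culture by a log2 fold change of 0.07 (95% interval -0.11 to 0.25). BIRC3 was at 42.5, 43.1 and 53.9 CPM in mono-culture, at 37.0, 38.0 and 57.1 CPM with control ECs, at 38.7, 37.0 and 47.4 CPM with senECs, and at 38.6, 37.6 and 51.2 CPM with EGCG-treated senECs. The groups overlapped, with a log2 fold change of -0.13 for the mean of the co-cultures (95% interval -0.41 to 0.15, edgeR adjusted p = 0.783).

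**Figure D2:**
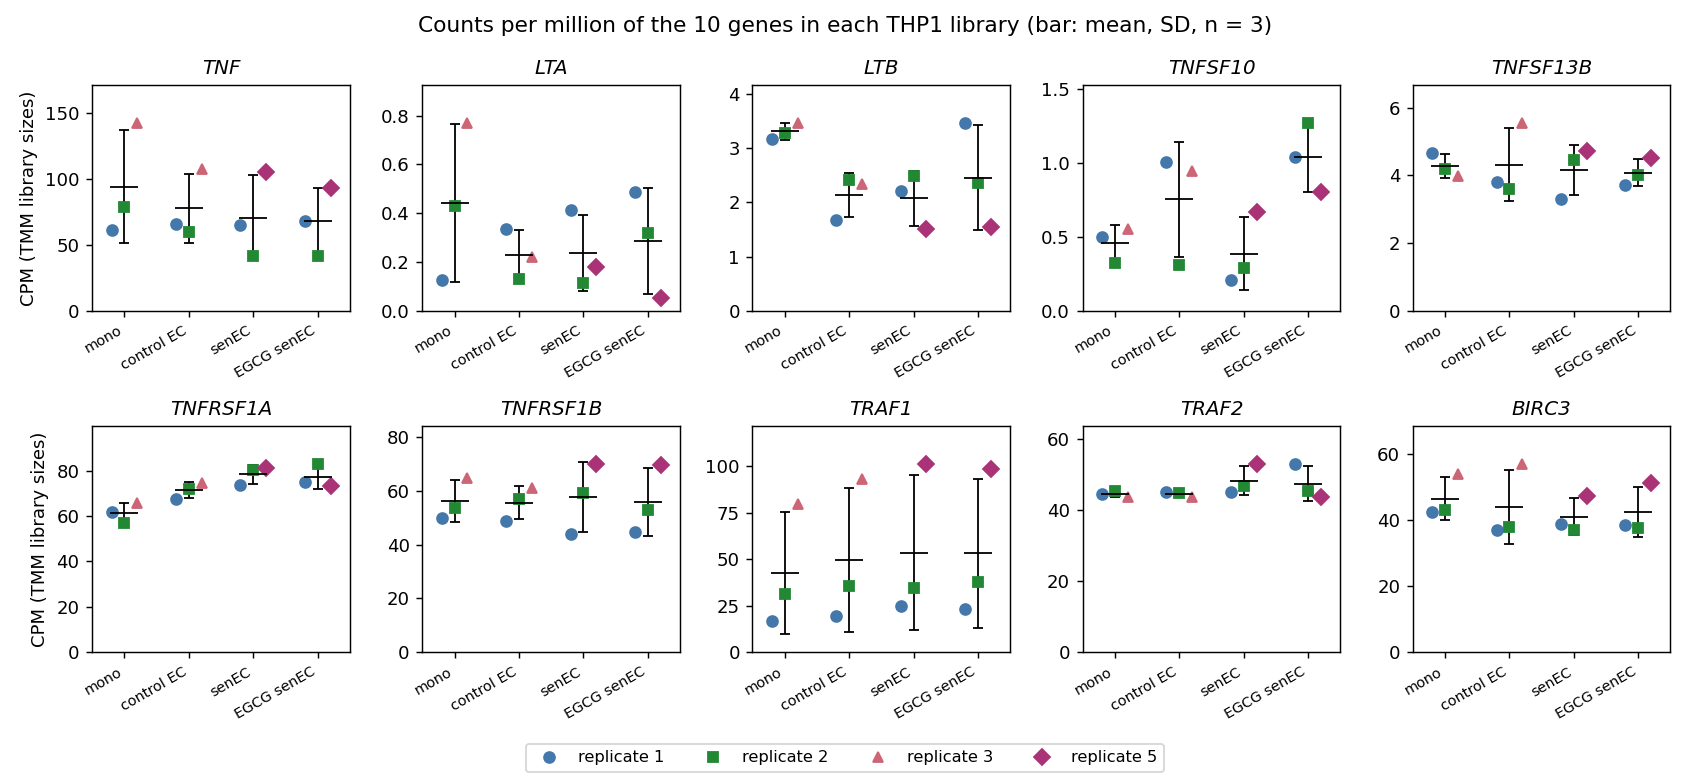
CPM of each of the 10 genes (linear axes from 0) in the 4 culture groups, with 1 symbol per library shaped and coloured by replicate number, and the mean and SD of the 3 libraries. TNFRSF1A lies lower in the 3 mono-culture libraries than in all 9 co-culture libraries, and TNF, TNFRSF1B, TRAF1 and BIRC3 are highest in replicate 3 or 5 of every group.

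The second question was whether senECs acted differently from control ECs on the THP1 cells, and the third whether EGCG treatment of the senECs changed this. For senEC against control EC co-culture edgeR called 0 of 25873 genes (0.0%), although 1709 had an unadjusted p under 0.05, and DESeq2 also called 0. Without the filter on low counts edgeR called 114 genes, none of them among the 10. Of the 10 genes, TRAF2 alone did not overlap between both groups, at 45.1, 46.6 and 52.9 CPM with senECs and 44.9, 44.7 and 43.5 CPM with control ECs. Groups without overlap and higher with senECs were found for 5.31% of all genes. Its log2 fold change was 0.12 (95% interval -0.10 to 0.34, edgeR adjusted p = 0.821). TNF differed by a log2 fold change of -0.13 (95% interval -0.81 to 0.54) and TNFRSF1A by 0.13 (95% interval -0.07 to 0.34). TRAF1 differed by 0.11 (95% interval -1.11 to 1.34) and BIRC3 by -0.10 (95% interval -0.44 to 0.24). The TRAF1 interval reaches past a 2-fold change in either direction, and that of TNF past a 1.5-fold lower level.

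For EGCG-treated senECs against senECs edgeR called 0 genes (0.0%), with 575 at an unadjusted p under 0.05, and DESeq2 called 0, against 14 in edgeR without the filter, again none of the 10. The largest difference of the 10 genes was in TNFSF10, the ligand that triggers apoptosis through TNFRSF10A and TNFRSF10B. It had 4, 5 and 11 counts with senECs (0.206, 0.289 and 0.665 CPM) and 17, 20 and 15 counts with EGCG-treated senECs (1.04, 1.27 and 0.804 CPM). All 3 EGCG-treated senEC libraries lay above all 3 senEC libraries, as they did for 3.17% of all genes. In mono-culture TNFSF10 had 8, 6 and 10 counts, and with control ECs 21, 7 and 17 counts. The log2 fold change of EGCG-treated senECs against senECs was 1.42 (95% interval 0.22 to 2.62), and the edgeR adjusted p was 1. Leaving out senEC replicate 1 gave 1.11, and leaving out senEC replicate 5 gave 2.04. TNF differed by a log2 fold change of -0.06 (95% interval -0.73 to 0.61), TNFRSF1A by -0.02 (95% interval -0.23 to 0.18), BIRC3 by 0.05 (95% interval -0.29 to 0.39) and TRAF1 by -0.0016 (95% interval -1.23 to 1.23). The comparison of EGCG-treated senECs with control ECs called 0 genes in both tools (0.0%), with 1177 genes at an unadjusted p under 0.05 in edgeR, and 43 without the filter. None of the 10 genes was without overlap there, as 9.49% of all genes were, so that 0 of 10 is near the background.

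**Figure D3:**
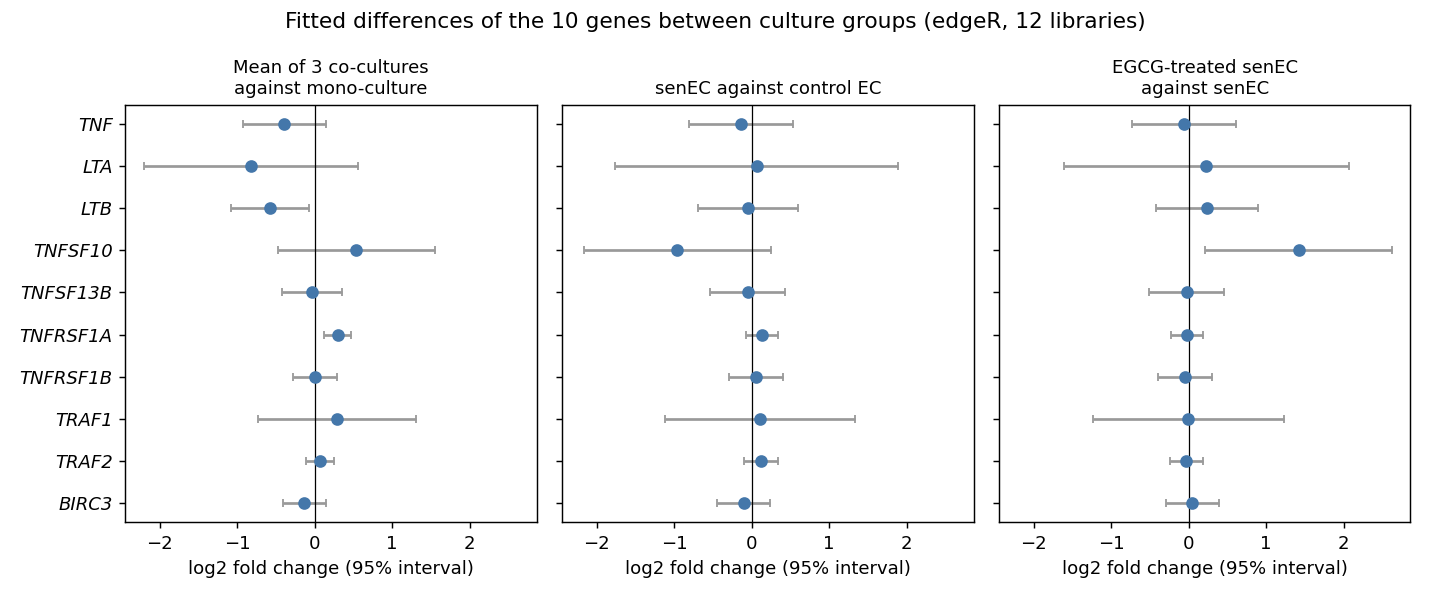
Fitted log2 fold change (points) and 95% interval (bars) of the 10 genes in 3 comparisons, from edgeR with all 12 libraries. Intervals of TNFRSF1A and LTB in the co-cultures against mono-culture, and of TNFSF10 in EGCG-treated senECs against senECs, lie off 0, but none passed the adjusted test.

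The largest differences among these genes ran between libraries of 1 group. The replicate number was therefore tested as a factor with the culture group in the same edgeR model. It called 4 of the 10 genes, TRAF1 (adjusted p = 5.66e-103), TNF (adjusted p = 1.46e-31), TNFRSF1B (adjusted p = 5.37e-06) and BIRC3 (adjusted p = 4.56e-05), against 9.61% of all genes. In this model the spread was almost wholly shared across genes, so that the p-values can be too small for a gene that varies more than most. The same model serves below to compare culture groups, and the same limit holds for its calls there. With a robust estimate of the spread, chosen after the data were seen, edgeR called the same 4 genes and 9.35% of all genes, with an adjusted p of 0.00659 for TNF against 9.55e-108 for TRAF1. DESeq2 also called these 4 genes and 6.60% of all genes, with an adjusted p of 3.00e-05 for TNF.

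Relative to replicate 1, TRAF1 was higher by a log2 fold change of 0.73 in replicate 2, 2.16 in replicate 3 and 2.13 in replicate 5. TNF was higher by 0.76 in both replicate 3 and replicate 5, but its log2 fold change in replicate 2 was -0.27. TNFRSF1B was higher by 0.25, 0.39 and 0.61 in replicates 2, 3 and 5. BIRC3 was -0.01 in replicate 2 and higher by 0.47 in replicate 3 and 0.37 in replicate 5. All genes tested had medians between -0.05 and 0.01 on the same scale. For these 4 genes the library numbered 3 or 5 was the highest of its group in all 4 groups, a pattern held by 4.35% of all genes. Numbers 3 and 5 each occur in 2 groups only, and what a number marks is not given in the labels. Of the 12 monocytic markers 9 were called by the replicate number, beside 9.61% of all genes. Of these, 8 were higher in replicates 3 and 5 than in replicate 1. CD14 was higher by a log2 fold change of 1.12 in replicate 3 and 1.75 in replicate 5, while MPO, a gene of early myeloid cells, was -0.97 and -1.29, and their part in these differences was not tested.

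**Figure D4:**
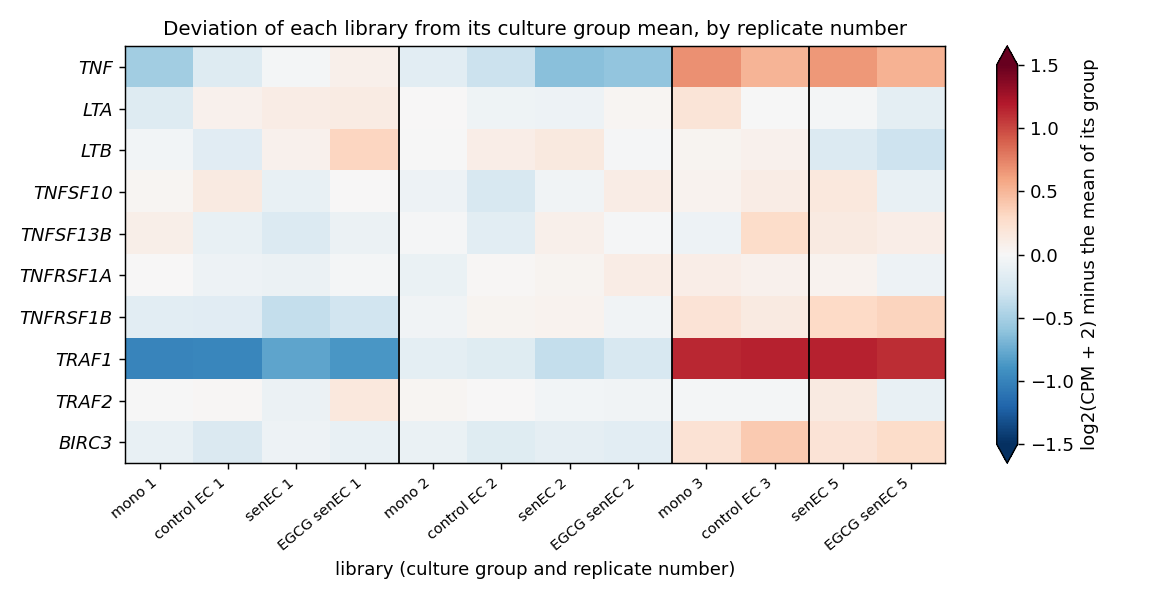
Colour map of log2(CPM + 2) in each library minus the mean of its culture group, for the 10 genes (rows) and 12 libraries (columns ordered by replicate number, black lines between numbers). TRAF1, TNF, TNFRSF1B and BIRC3 are above their group mean in all 4 libraries numbered 3 or 5, and TRAF2 and TNFRSF1A show no such block.

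The genes whose profile over the 12 libraries was most like that of 3 members were found among 9351 genes with a mean of at least 10 CPM, by Pearson correlation of log2(CPM + 2). The libraries fall into sets by replicate number, so that a high value mostly restates these sets. For TRAF1 they were IL1B (r = 0.993, 131 to 866 CPM), CD83 (r = 0.989) and WTAP (r = 0.986). For TNF they were CA2 (r = 0.929, 727 to 1294 CPM), SHOX2 (r = 0.889) and ACPP (r = 0.887). For BIRC3 they were TMEM30A (r = 0.921), HINT3 (r = 0.920) and B3GNT5 (r = 0.918). No gene stood on more than 1 of these 3 lists.

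Around the 10 genes, 107 further genes of the pathway were listed, of which 97 were tested. None of the 97 was called in any of the 7 comparisons of culture groups by edgeR, and 16 had an unadjusted p under 0.05 in the mean of the co-cultures against mono-culture, beside 10.7% of all genes. Of 13 other ligands 9 were tested. The most abundant were CD70 (84.0 CPM), TNFSF14 (23.0 CPM) and TNFSF9 (15.9 CPM), ligands known for costimulation of T cells, while FASLG, TNFSF8, TNFSF18 and EDA had fewer than 10 counts. CD70 stood at 54.8 ± 5.17 FPKM (SD, n = 12), above TNF by less than the SD of TNF. The list's median log2 fold change in the mean of the co-cultures was -0.07, beside -0.02 for all genes.

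Of 27 other receptors 22 were tested, with LTBR (67.8 CPM), the receptor for lymphotoxin, CD40 (52.2 CPM) and RELT (51.1 CPM) the most abundant. LTBR, like TNFRSF1A, lay lower in all mono-culture libraries (57.7 to 59.9 CPM) than in all co-culture libraries (61.8 to 77.2 CPM). Such a separation in this direction held for 1.77% of all genes, and LTBR was not called. The replicate number called 3 of the 22, near the 9.61% of all genes, all higher in replicates 3 and 5 than in replicate 1. CD40, the receptor for T cell help, was higher by a log2 fold change of 1.14 and 1.31, and TNFRSF9 by 1.29 and 1.56. TNFRSF12A was the third, at an edgeR adjusted p of 0.0493. All 28 other TRAF and receptor complex genes were tested, led by CFLAR (224 CPM), an inhibitor of caspase activation, TRAF3 (147 CPM) and the kinase MAP3K7 (146 CPM). Beside 9.61% of all genes, the replicate number called 5 of them, CFLAR, TRAF3, BIRC2, TANK and CYLD, all higher in replicates 3 and 5 than in replicate 1.

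Of 13 genes that release TNF from the membrane or control decay of its mRNA, the replicate number called 4, beside 9.61% of all genes. ZC3H12A, a ribonuclease that cleaves inflammatory mRNA, the sheddase gene ADAM17 and its inhibitor TIMP3 were higher in replicates 3 and 5 than in replicate 1. ZFP36L2, an mRNA decay factor, was lower, with a log2 fold change of -0.32 in replicate 3 and -0.47 in replicate 5. Of 26 response genes known to be induced by TNF through NF-κB, 25 were tested, all but SOD2, whose level is not given here. Beside 9.61% of all genes, the replicate number called 24 of the 25, all higher in replicates 3 and 5 than in replicate 1. IL1B was higher by a log2 fold change of 2.16 in replicate 3 and 2.37 in replicate 5, and PTGS2 by 2.07 and 2.39. NFKBIA was higher by 0.30 and 0.41. TNFAIP3, the ubiquitin-editing inhibitor of NF-κB, was the most abundant of the 25 tested at 1157 CPM, followed by TNFAIP2 (660 CPM) and NFKBIA (536 CPM). The median of the list was 0.82 in replicate 3 and 0.99 in replicate 5 against replicate 1, beside medians of -0.01 and -0.05 for all genes. None of the 9 other ligands tested was called by the replicate number in edgeR, beside 9.61% of all genes. Of these ligands 2 had an unadjusted p under 0.05, beside 18.2% of all genes.

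None of the 25 response genes tested was called between culture groups. In the mean of the co-cultures against mono-culture 24 of the 25 had a log2 fold change above 0 and 0 were called, with a median of 0.22 beside -0.02 for all genes. In senEC against control EC co-culture 21 of 25 were above 0, with a median of 0.24 beside -0.01. In EGCG-treated senECs against senECs 8 of 25 were above 0, with a median of -0.06 beside 0.00. These comparisons share libraries, and the genes of the list move together within a library, so that the counts are not separate pieces of evidence.

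**Figure D5:**
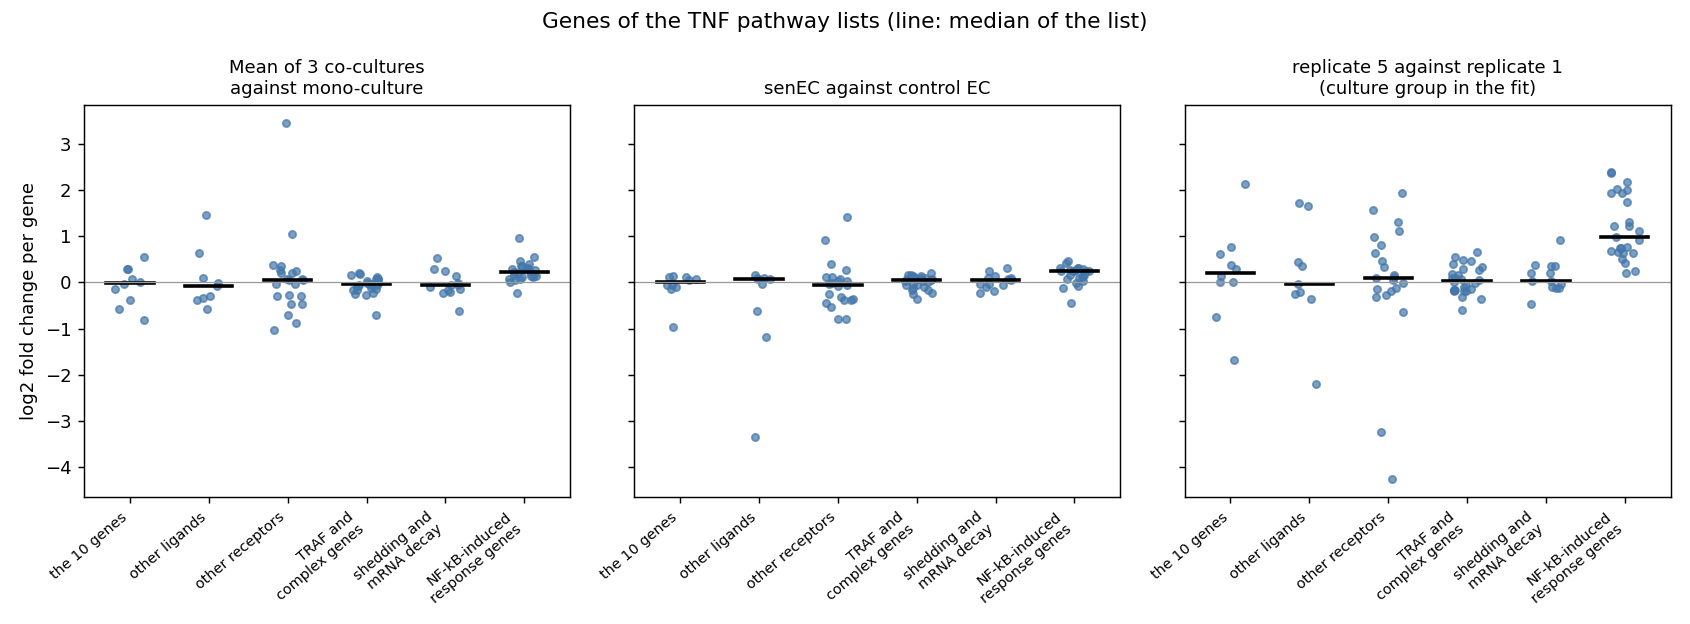
Log2 fold change of each gene tested (points) and the list median (lines) for the 10 genes and 5 further lists, in the mean of the co-cultures against mono-culture, in senEC against control EC co-culture, and in replicate 5 against replicate 1. The NF-κB-induced response genes have a median of 0.22 and 0.24 in the first 2 panels and 0.99 in the third.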

How the data were processed

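RNA-sequencing covered 12 libraries of LPS-stimulated THP1 cells in 4 groups of 3, grouped by the sample labels. The values are read counts on each gene symbol, deposited by the authors as whole numbers and not normalized. Their processing notes name HISAT2 and the build hg38, while the counting program and annotation are not given in the sources used here. All 57169 distinct symbols occur in GENCODE release 29, which gave positions and exon lengths. A symbol found on several rows was kept as separate rows, which were not matched to the gene lists. A further 4 columns of the table match no described sample and were not used.

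Counts were tested with edgeR 4.0.16 (quasi-likelihood, TMM, genes whose counts summed to 10 or more, Benjamini-Hochberg adjusted p under 0.05, all 12 libraries and only the group in 1 model) in R 4.3.3, and alternatively with DESeq2 1.42.0. All 10 members passed the filter. The SE of a log2 fold change was taken as its ratio to the root of the F statistic. CPM use TMM library sizes, and FPKM divide them by exon length. The test was tested on simulated data. Sequences came from RefSeq (GRCh38.p14), taking for each gene the entry whose start is nearest the GENCODE start, and all 10 genes matched. Tables were made with Python 3.11.15, pandas 2.3.3 and matplotlib 3.10.9.

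The members, the lists and the tests were chosen with earlier results of these data known. The rule for naming genes took all members, list genes that were called or were among the 3 most abundant of a list, and the 3 genes most correlated with TNF, TRAF1 and BIRC3. Alternatives tried were the test of DESeq2, DESeq2 size factors within edgeR, no filter, at least 10 counts in every library, only the libraries compared, a replicate block, CPM without TMM factors, and each library left out in turn.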

Additional observations from a re-analysis of the deposited data

How the results depend on the processing

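The number of the 10 genes called stayed at 0 in control EC co-culture against mono-culture and in the 3 comparisons among co-cultures under every alternative run, and at 4 for the replicate number. With at least 10 counts in every library only 8 of the 10 genes were tested, because LTA and TNFSF10 fell below that filter. Against mono-culture, DESeq2's test called 1 gene with senECs and 1 in the mean of the co-cultures, TNFRSF1A, and the fit without a filter on low counts called 1 in each of senECs, EGCG-treated senECs and the mean, TNF at a log2 fold change of -0.41, -0.48 and -0.38. Leaving out any library called 0 in all 7 comparisons. Over all genes, calls against mono-culture with control ECs, senECs, EGCG-treated senECs and in the mean were 37, 80, 55 and 187 in edgeR, 116, 339, 226 and 439 in DESeq2, and 223, 588, 377 and 582 without the filter, which also called 114, 14 and 43 genes among the co-cultures. With only the libraries compared, senECs and EGCG-treated senECs called 20 and 35, and with at least 10 counts in every library EGCG-treated senECs called 36 and the replicate number 1568 (2486 with the usual filter). With 1 library left out, calls against mono-culture ranged from 11 to 44, 19 to 255, 12 to 100 and 37 to 244, and among the co-cultures from 0 to 1. Against mono-culture, 11, 12 and 37 came without mono-culture replicate 2, 19 without senEC replicate 2, 44 and 100 without senEC replicate 5, and 255 and 244 without senEC replicate 1.

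Deviations of same-numbered libraries from their group means correlated at 0.0319 to 0.577, and 23 of 28 library and group pairs matched best with their own number, a hint from the data. The limit set for pairs (3 correlations, all over 0.1) was missed in mono-culture with control ECs (lowest 0.0930) and senECs with EGCG-treated senECs (0.0703), and the labels tie no number to a shared culture, so the numbers were not used as pairs. Against mono-culture, a fit with a replicate block called 2 of the 10 genes with senECs and 2 with EGCG-treated senECs (TNF and TNFRSF1A). It called 3 in the mean (TNF at a log2 fold change of -0.38, TNFRSF1A at 0.33 and TRAF1 at 0.31). Its p-values can be too small. Over all genes the block called 469, 709, 424 and 824 against mono-culture, and 153, 13 and 34 among the co-cultures. Of 7 same-numbered pairs, sharing 3 mono-culture libraries, TNFRSF1A and TRAF1 were higher in co-culture in 7 and TNF in the 3 numbered 1.

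Several fold changes that the main test did not call changed sign. TNFRSF1B in the mean of the co-cultures was -0.051 with the block and -0.0079 with at least 10 counts in every library, and TRAF1 in EGCG-treated senECs against senECs was 0.0075 in DESeq2, 0.014 with its size factors, 0.030 with at least 10 counts in every library and 0.0044 with only the libraries compared. Leaving out 1 library moved, in the mean of the co-cultures, TNF from -0.62 to 0.040, TNFSF13B from -0.11 to 0.032, TNFRSF1B from -0.073 to 0.12 and TRAF1 from -0.093 to 1.10. In senEC against control EC co-culture it moved TNF from -0.54 to 0.17, TRAF1 from -0.74 to 0.95 and BIRC3 from -0.21 to 0.13. In EGCG-treated senECs against senECs it moved TNF from -0.36 to 0.34, TRAF1 from -0.81 to 0.85, BIRC3 from -0.11 to 0.17 and TNFRSF1A from -0.079 to 0.014. For TNF against mono-culture it gave -0.59 to 0.15 with control ECs and -0.82 to 0.012 with senECs. The causes were not tested. CPM without TMM factors moved 1 of 40 group means by more than its SD, that of TRAF2 in mono-culture, to 45.4 CPM. Depth limits LTA and TNFSF10, at 1 to 21 counts per library.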
